A study of Mus musculus with 11 samples.

Results

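The transcription factor NRF2 (gene Nfe2l2), its inhibitor KEAP1 and 8 of their classic target genes were followed in monocyte cultures that met the Ahr ligand FICZ, the Notch ligand Jag1, or both. The 10 genes are Nfe2l2, Keap1, Hmox1, Blvrb, Gclc, Gclm, Gsr, Txnrd1, Srxn1 and Prdx1. They were chosen by symbol from the 21860 genes of the table, and each symbol matched 1 gene. All 10 passed the filter on low values, a normalised read count of at least 10 in at least 2 samples, which left 13095 genes for testing. The question was whether FICZ moved oxidative stress genes as it moved the targets of Ahr.

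KEAP1 holds NRF2 in the cytoplasm and hands it over for degradation, and oxidants or electrophiles that modify KEAP1 let NRF2 reach the nucleus. There NRF2 pairs with a small MAF protein on antioxidant response elements and switches on genes that make and recycle glutathione, reduce thioredoxin and break down heme. Ahr is a ligand-activated factor that binds xenobiotic response elements with its partner ARNT, and its cytochrome P450 targets are not classic NRF2 genes, while Nqo1 answers to both. NRF2 is controlled largely at the level of its protein, which RNA sequencing does not measure.

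The samples were CD11b-low EpCAM+ cells sorted on day 6 from cultures of mouse bone marrow monocytes, which give Langerhans cell-like cells. All 11 samples had GM-CSF at 20 ng/ml. In 10 of them IL-34 (8 µg/ml) and TGFβ (5 ng/ml) were present as well, and these fell into TGFβ/IL-34 alone (n = 2), with FICZ (n = 2), with Jag1 (n = 3) and with Jag1 and FICZ (n = 3). The last sample had GM-CSF and Jag1 without TGFβ or IL-34, and is called Jag1 only (n = 1, so it has no replicate check). Jag1 was presented by OP9 stromal cells, a mouse line made to carry it. The labels name OP9 cells for all 11 samples, but the sample descriptions do not show whether cultures without Jag1 had them, so an effect of Jag1 and an effect of the stroma cannot be told apart. FICZ is an Ahr agonist in the terms of the study, although the deposited design text calls it an antagonist, and its dose is not given in the sources used here. Bone marrow came from male and female mice, with the age not given, and nothing in the labels says that replicates were separate animals, so p-values measure the spread between these samples, which may be technical.

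Total normalised counts were 21.3 to 27.8 M per sample, worth an estimated 20.6 to 24.3 M reads, and the lowest value of any member in any sample was 245 normalised counts, with 1 read worth 0.894 to 1.15. Epcam stood at 3952 to 14377 normalised counts in the 10 samples with TGFβ/IL-34 and at 657 in Jag1 only. Cd207, which encodes the Langerhans cell protein langerin, stood at 154 and 157 in TGFβ/IL-34, at 1366 to 1784 with Jag1, at 6.21 and 6.90 with FICZ, and at 6.29 to 132 with both. All 5 samples with FICZ were below the other TGFβ/IL-34 samples for this defining marker. The summed level of 7 granulocyte and progenitor markers was 176 to 311 in TGFβ/IL-34/Jag1 and 6268 to 9411 in TGFβ/IL-34/Jag1/FICZ, and that of 6 cycling genes was 2847 to 4209 and 12330 to 12730. Of these genes, 6 of 7 and 6 of 6 passed the test upward with FICZ in the presence of Jag1. Of 8 stromal markers 6 were tested, and their sum was 7.58 to 38.0 without Jag1 and 360 to 4296 with it. In bulk samples fewer cells of a type and less RNA per cell cannot be told apart, and the part of these markers in the results that follow was not tested. The TGFβ/IL-34/FICZ replicates stood apart from each other. Replicate 1 came from another experiment code and another flow cell than replicate 2, sharing the flow cell only with the first sample that had Jag1 and FICZ, and counts that rest on this group are given with and without them.

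Across all samples Prdx1 was the most abundant member per length, at 1450 normalised counts per kb of exon, followed by Txnrd1 at 684, Nfe2l2 at 567, Blvrb at 458, Hmox1 at 399, Gsr at 347, Keap1 at 341, Gclm at 189, Gclc at 142 and Srxn1 at 101. These are levels, averaged over the 11 samples, with exon lengths from GENCODE M39. The spread between samples was narrowest for Keap1, whose highest value was 1.72 times its lowest, and widest for Hmox1, at 8.00 times.

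Promoters are shown because the members are classed by the elements that NRF2 and Ahr bind. RefSeq start sites on GRCm38.p6 were at hand for 7 of the 10 members (not for Hmox1, Gclc and Gsr), in 10 windows of 300 bases, 250 before and 50 after the start. The antioxidant response element core TGACNNNGC, searched on both strands, lay in a window of 5 of these 7 members, against 12.4% of 32851 promoters. The xenobiotic response element core GCGTG, also on both strands, lay in a window of 5 of the 7, against 32.4%. Blvrb and Txnrd1 have more than 1 window and so more chances of a match. A match is a description of letters, not a bound site. The 250 bases before the start of the 3 members with a core that passed a test, and of Cyp1a1 as the contrast, run 5′ to 3′ on the strand of the gene, with matched cores in capitals (either strand). In Nfe2l2 the capitals are the antioxidant core, in Gclm the antioxidant core and 3 xenobiotic cores, in Prdx1 the antioxidant core and in Cyp1a1 the xenobiotic core.
Nfe2l2 (chr2:75704664-75704913, minus strand): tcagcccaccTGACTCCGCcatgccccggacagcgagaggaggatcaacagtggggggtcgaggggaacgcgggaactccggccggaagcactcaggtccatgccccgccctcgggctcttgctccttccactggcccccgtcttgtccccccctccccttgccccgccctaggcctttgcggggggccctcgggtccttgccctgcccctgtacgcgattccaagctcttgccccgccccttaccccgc
Gclm (chr3:122245307-122245556, plus strand): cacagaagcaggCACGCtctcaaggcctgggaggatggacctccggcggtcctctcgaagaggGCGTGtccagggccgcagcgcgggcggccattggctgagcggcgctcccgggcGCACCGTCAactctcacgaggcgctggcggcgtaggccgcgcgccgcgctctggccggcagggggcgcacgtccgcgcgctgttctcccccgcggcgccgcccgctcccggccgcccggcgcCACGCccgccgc
Prdx1 (chr4:116685349-116685598, plus strand): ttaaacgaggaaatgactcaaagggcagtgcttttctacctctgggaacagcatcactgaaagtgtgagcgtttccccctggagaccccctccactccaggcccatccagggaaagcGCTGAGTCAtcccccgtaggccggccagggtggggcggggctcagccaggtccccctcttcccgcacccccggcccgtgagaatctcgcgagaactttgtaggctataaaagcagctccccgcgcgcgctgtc
Cyp1a1 (chr9:57697363-57697612, plus strand): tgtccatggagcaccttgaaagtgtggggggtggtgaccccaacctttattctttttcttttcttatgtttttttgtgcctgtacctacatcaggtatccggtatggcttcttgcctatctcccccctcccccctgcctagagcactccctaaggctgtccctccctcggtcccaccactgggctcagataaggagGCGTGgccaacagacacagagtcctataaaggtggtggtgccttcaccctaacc

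The antioxidant core of Nfe2l2 began 240 bases before the start, that of Gclm 134 bases before it and that of Prdx1 133 bases before it. Cyp1a1 had its xenobiotic core 54 bases before the start. Of the other matches, 3 are given as the 30 bases around them, because Txnrd1 (at its second start site) and Srxn1 hold an antioxidant core near the start and Cyp1b1 holds a xenobiotic core alone. The capitals mark these cores, and the windows of Txnrd1 and Srxn1 also hold xenobiotic cores that are not marked here.
Txnrd1 (chr10:82859104-82859133, plus strand): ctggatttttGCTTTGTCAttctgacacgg
Srxn1 (chr2:152105542-152105571, plus strand): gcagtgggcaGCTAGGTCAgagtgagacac
Cyp1b1 (chr17:79715120-79715149, minus strand): cgtcccgcccctCACGCcccaccccctaag

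Nfe2l2 (ENSMUSG00000015839, chr2:75504739-75534985 on GRCm39) fell with FICZ in the presence of Jag1. It stood at 2986 and 3380 normalised counts in TGFβ/IL-34, 2624 and 2826 with FICZ, 5757, 4138 and 3845 with Jag1, 2034, 1562 and 2307 with both, and 2620 in Jag1 only. The 3 samples with Jag1 were the highest of all and the 3 with both the lowest. The log2 fold change of FICZ with Jag1 was −1.21 (SE 0.196, limma on log2(value + 1), adjusted p = 0.00199), a level 2.32-fold lower, and the call held under every alternative that was run. Within the 3 experiment codes the log2 difference was between −1.50 and −0.74. Without Jag1 the FICZ difference was −0.22 (SE 0.240, limma adjusted p = 0.586), with a 95% interval from −0.76 to 0.31. Jag1 gave 0.50 without FICZ (limma adjusted p = 0.244) and −0.49 with it (0.216), with no overlap of the groups in either case.

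Keap1 (ENSMUSG00000003308, chr9:21141026-21150679) did not pass the test in any comparison. Its levels ran from 1708 to 2052 in the 10 samples with TGFβ/IL-34, and the means of the 4 groups lay between 1738 and 1922. The FICZ difference with Jag1 was −0.01 on the log2 scale, with a 95% interval from −0.30 to 0.29. Jag1 only stood at 2934, which was 1.43 times the highest of the others.

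**Figure D1:**
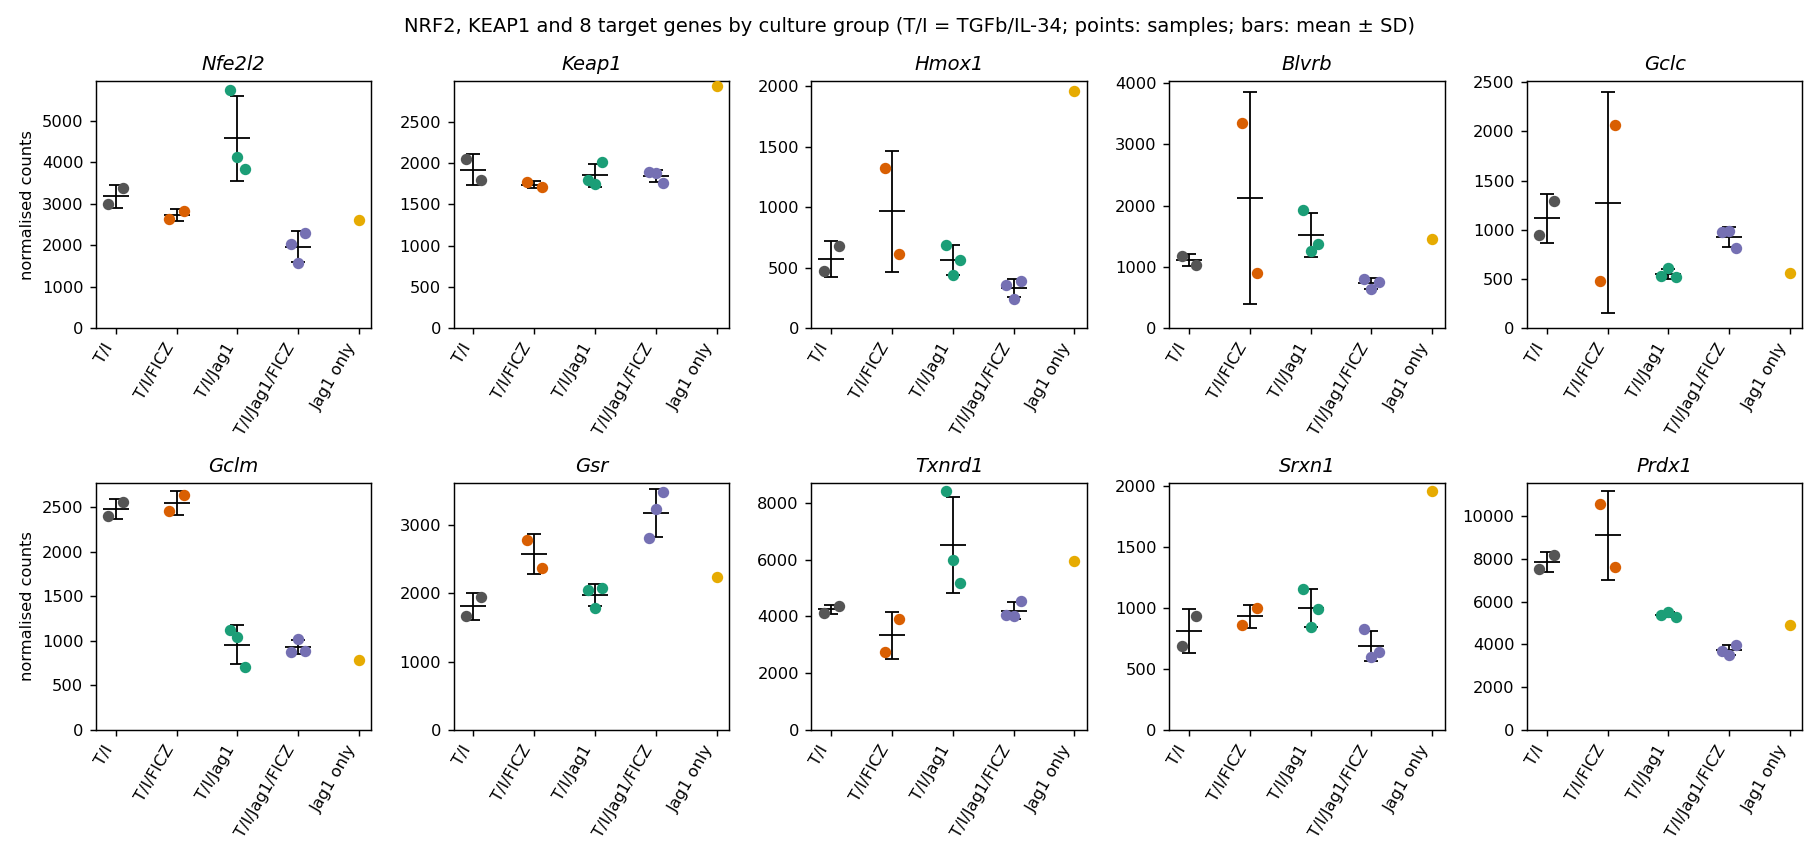
Normalised counts (y axis, from 0) of the 10 genes in each of 11 samples, by culture group (x axis). Points are samples and bars the mean ± SD. Nfe2l2 runs from 1562 to 2307 with Jag1 and FICZ, below all other samples, Gclm is at 711 to 1117 in all samples with Jag1 and TGFβ/IL-34 against 2406 to 2642 without Jag1, and the TGFβ/IL-34/FICZ points of Blvrb and Gclc lie far apart.

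Hmox1 encodes heme oxygenase 1, which opens the heme ring, and Blvrb encodes biliverdin reductase B, which acts on a product of heme breakdown and reduces flavins. Hmox1 (ENSMUSG00000005413, chr8:75820241-75827217) was at 469 and 677 in TGFβ/IL-34, 1321 and 614 with FICZ, 687, 436 and 563 with Jag1, 357, 245 and 390 with both, and 1959 in Jag1 only. It was lowest in the 3 samples with both and highest in Jag1 only. The FICZ difference with Jag1 was −0.77 (SE 0.317, limma adjusted p = 0.131), and the groups did not overlap. It did not pass here, but it did with the experiment code as a block (adjusted p = 0.0226 in limma with the codes of the sample descriptions and 0.0442 with those of the deposited metadata, which differ for 1 sample, replicate 1 of TGFβ/IL-34). It passed in a fit of the compared groups alone as well (limma adjusted p = 0.0463). Without Jag1 the difference was 0.67 (SE 0.388, limma adjusted p = 0.336), and its groups overlapped.

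Blvrb (ENSMUSG00000040466, chr7:27147275-27165569) was at 1176 and 1035 in TGFβ/IL-34, 3350 and 897 with FICZ, 1935, 1258 and 1377 with Jag1, 797, 633 and 758 with both, and 1448 in Jag1 only. A single sample, replicate 1 of TGFβ/IL-34/FICZ, was 3.73 times its partner. With Jag1 the FICZ difference was −1.04 (SE 0.392, limma adjusted p = 0.0982), and it passed with either set of experiment codes as a block (0.0394 and 0.0366) and with the flow cell as a block (0.0174). The same difference passed with array weights (limma adjusted p = 0.00240) and in a fit of the compared groups alone (0.00490). Hmox1 and Blvrb were both lower in every sample with Jag1 and FICZ than in every sample with Jag1 alone.

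Gclc and Gclm encode the catalytic and the modifier subunit of glutamate-cysteine ligase, which makes the first and limiting step of glutathione synthesis. Gclm (ENSMUSG00000028124, chr3:122039126-122065061) was at 2406 and 2564 in TGFβ/IL-34, 2457 and 2642 with FICZ, 1117, 1046 and 711 with Jag1, 880, 1025 and 890 with both, and 789 in Jag1 only. Every sample with Jag1 lay below every sample without it. Jag1 lowered it by a log2 fold change of −1.40 without FICZ (SE 0.206, limma adjusted p = 0.00323) and −1.45 with it (SE 0.206, limma adjusted p = 0.00960). The FICZ differences were 0.04 without Jag1 (95% interval −0.47 to 0.54) and −0.02 with it (−0.43 to 0.39). Without replicate 2 of TGFβ/IL-34 the call without FICZ was lost (limma adjusted p = 0.0592), and the call with FICZ was lost with array weights (0.668) and in a fit of the compared groups alone (0.0892).

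Gclc (ENSMUSG00000032350, chr9:77661797-77701770) passed no test in the main fit. For FICZ with Jag1 it passed with array weights (limma adjusted p = 0.0201) and in a fit of the compared groups alone (0.00597). For Jag1 without FICZ it passed in the same settings (limma adjusted p = 0.00789 and 0.0279). It was at 943 and 1291 in TGFβ/IL-34, 479 and 2070 with FICZ, 531, 613 and 520 with Jag1, 978, 987 and 814 with both, and 558 in Jag1 only. The 3 samples with both lay above the 3 with Jag1 alone (log2 fold change 0.74, SE 0.420, limma adjusted p = 0.285). The ranges of Gclm overlapped between these groups and those of Gclc did not, and the difference between the subunits was not tested.

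Gsr encodes glutathione reductase, which returns oxidised glutathione to its reduced form. Gsr (ENSMUSG00000031584, chr8:34142551-34188192) was at 1673 and 1949 in TGFβ/IL-34, 2786 and 2373 with FICZ, 2049, 1791 and 2084 with Jag1, 2807, 3239 and 3494 with both, and 2234 in Jag1 only. All 5 samples with FICZ were above all 6 without it. FICZ raised it by 0.68 with Jag1 (SE 0.150, limma adjusted p = 0.0101), 1.61-fold. Without Jag1 the difference was 0.51 (SE 0.183, limma adjusted p = 0.285), in the same direction but not past the threshold on the adjusted p. The difference between the effects was 0.17 (95% interval −0.35 to 0.70, limma adjusted p = 0.670). The call with Jag1 was lost when the second or the third sample with Jag1 and FICZ (replicates 2 and 3) was removed from the fit (adjusted p = 0.0501 and 0.0511 in limma).

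Txnrd1 encodes cytosolic thioredoxin reductase, Prdx1 a peroxiredoxin that removes hydrogen peroxide, and Srxn1 sulfiredoxin, which rescues over-oxidised peroxiredoxins. Prdx1 (ENSMUSG00000028691, chr4:116532123-116558398) was at 7521 and 8180 in TGFβ/IL-34, 10572 and 7638 with FICZ, 5362, 5517 and 5272 with Jag1, 3711, 3492 and 3974 with both, and 4903 in Jag1 only. The groups stepped down from those without Jag1 to Jag1 and then to both. With Jag1, FICZ lowered it by −0.53 on the log2 scale (SE 0.151, limma adjusted p = 0.0351). With the replicate number as a block, which pairs these samples, the adjusted p was 0.0544 in limma, and it ran from 0.0719 to 0.144 as each of the 6 samples in turn was dropped. Jag1 lowered it by −1.27 with FICZ (SE 0.169, limma adjusted p = 0.00772), a call lost with array weights (0.339) and in a fit of the compared groups alone (0.120). Without FICZ the difference was −0.54 (SE 0.169, limma adjusted p = 0.0943). This difference passed with array weights (limma adjusted p = 0.00319), with CPM scaling (0.0263) and with quantile normalisation (0.0228). It passed in a fit of the compared groups alone as well (limma adjusted p = 0.0281), and did not pass in the other alternatives.

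Txnrd1 (ENSMUSG00000020250, chr10:82669785-82733546) was at 4124 and 4369 in TGFβ/IL-34, 2742 and 3914 with FICZ, 8419, 5978 and 5181 with Jag1, 4047, 4023 and 4547 with both, and 5950 in Jag1 only. The difference of FICZ with Jag1 was −0.61 (SE 0.202, limma adjusted p = 0.0660), with no overlap of the groups. It passed with array weights (limma adjusted p = 0.00661), in a fit of the compared groups alone (0.0365) and without replicate 3 of TGFβ/IL-34/Jag1 (0.0469). Jag1 without FICZ passed for Txnrd1 with array weights only (limma adjusted p = 0.0154). Srxn1 (ENSMUSG00000032802, chr2:151947436-151957687) was at 683 and 935 in TGFβ/IL-34, 862 and 998 with FICZ, 1152, 844 and 988 with Jag1, 829, 598 and 638 with both, and 1953 in Jag1 only. Its difference of FICZ with Jag1 was −0.53 (SE 0.200, limma adjusted p = 0.0978).

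Taking the members as a list, FICZ without Jag1 gave 0 of 10 calls by limma, with 1 (Gsr, upward) at an unadjusted p under 0.05. Over all genes tested 0.0153% were called higher and 0.00764% lower, and 17.4% had an unadjusted p under 0.05. The median log2 fold change was 0.12 for the members and −0.02 for all genes. When replicate 2 of TGFβ/IL-34/FICZ was left out, 5 members were called, namely Blvrb, Hmox1 (1.23), Gsr (0.63) and Prdx1 (0.43) higher and Gclc (−1.20) lower, but 5718 of the 13095 genes were then called too, against 3 with all samples. With replicate 1 left out instead, 0 members were called.

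FICZ with Jag1 gave 3 of 10 calls, 1 higher (Gsr) and 2 lower (Nfe2l2, Prdx1), beside 10.9% of all genes called higher and 6.71% lower. Of the 10, 7 had an unadjusted p under 0.05, against 30.2% of all genes. In 8 of the 10 the groups did not overlap (2 higher, 6 lower), against 45.1% of all genes. The median log2 fold change of the members was −0.53 and that of all genes −0.01. Of the members, 8 had a difference below 0.

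Ahr and its targets gave other values in the same samples. Of 8 listed genes 7 were tested, and Cyp1a2 was at 0 in all but 1 sample. With FICZ and Jag1, 5 were called higher (Ahrr, Cyp1a1, Cyp1b1, Tiparp and Nqo1) and Ahr itself lower. Cyp1a1, a cytochrome P450 that oxidises aromatic ligands of Ahr, was at 68.1 and 100.1 in TGFβ/IL-34, 2079 and 1933 with FICZ, 0, 0 and 0.985 with Jag1, and 644, 671 and 604 with both. Cyp1b1, a related enzyme, was at 2556 and 2570 in TGFβ/IL-34 and at 3780 and 7391 with FICZ. It was at 1.04, 4.76 and 2.80 with Jag1 and 2868, 2996 and 2384 with both. Both passed the test (limma adjusted p = 8.65e-07), and the size of the change depends on the pseudocount because the levels with Jag1 were near 1 read. Nqo1, a quinone reductase that answers to Ahr and NRF2, was at 31.8, 11.4 and 4.93 with Jag1 and 414, 271 and 163 with both (log2 fold change 4.30, SE 0.574, limma adjusted p = 0.000682). With neither agent, in TGFβ/IL-34, it was at 158 and 173. Jag1 without FICZ gave 5 of the 7 lower (Ahrr, Cyp1a1, Cyp1b1, Tiparp and Nqo1), beside 3.96% of all genes. For these 5 the FICZ difference with Jag1 started from that lower level. In the absence of Jag1 only Cyp1a1 of this list was called (4.59, SE 0.429, limma adjusted p = 0.00994), and with replicate 1 of the FICZ group left out 0 of all genes were called. Ahr fell by 1.34 on the log2 scale with FICZ and Jag1 (SE 0.381, limma adjusted p = 0.0355).

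**Figure D2:**
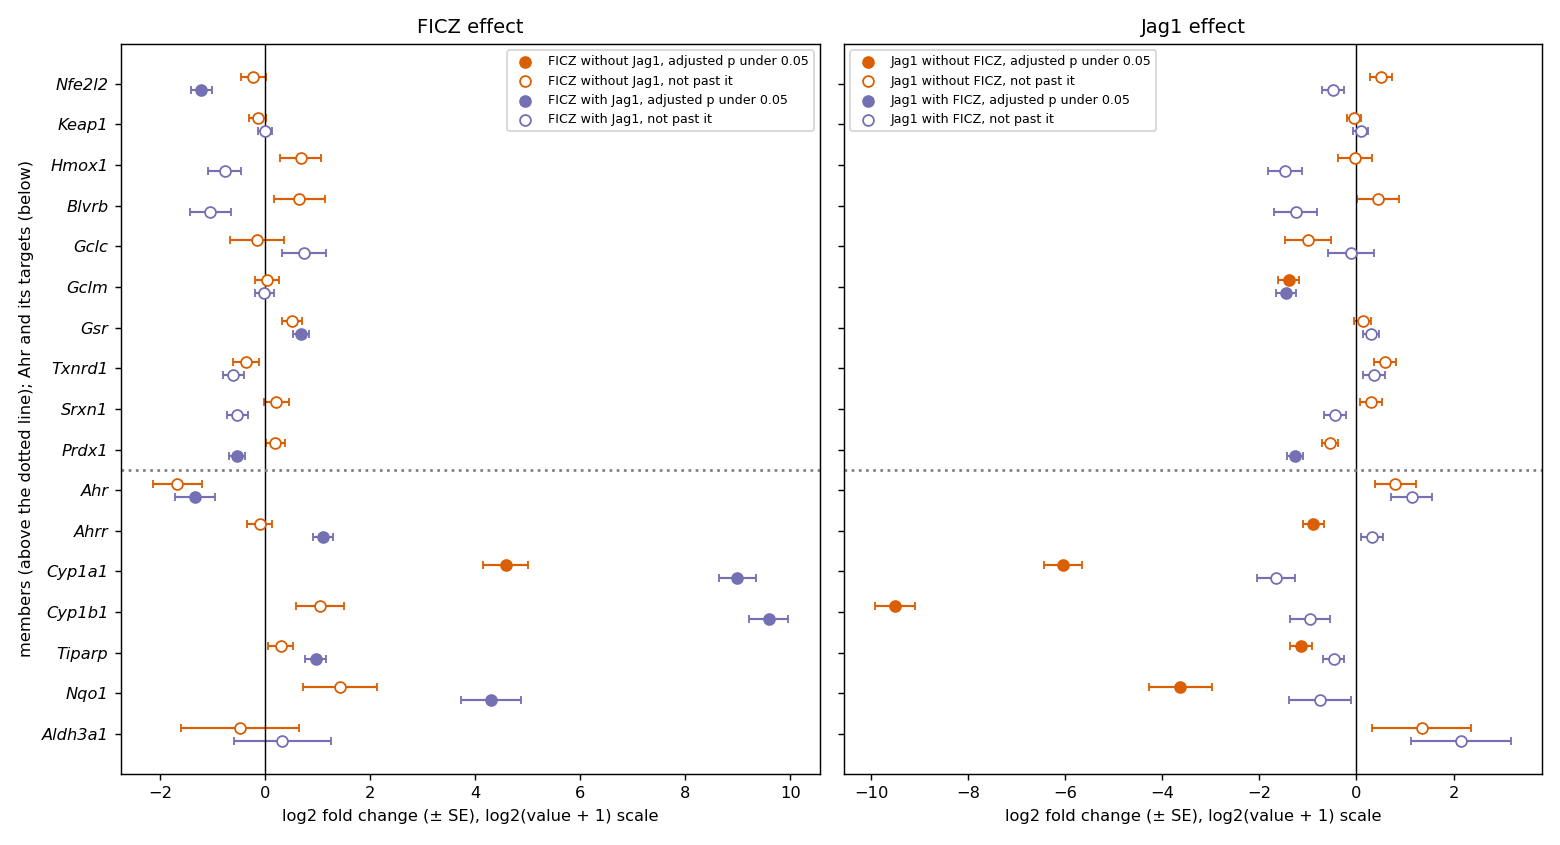
Log2 fold change ± SE (x axis) of FICZ (left) and of Jag1 (right), each in the absence (orange) and presence (purple) of the other agent, for the 10 members and 7 genes of the Ahr list (y axis). Filled points passed an adjusted p of 0.05. The members lie between −1.47 and 0.74. Cyp1a1 and Cyp1b1 reach 8.99 and 9.59 for FICZ with Jag1 and −6.1 and −9.5 for Jag1 without FICZ. Those sizes depend on the pseudocount of 1.

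**Figure D3:**
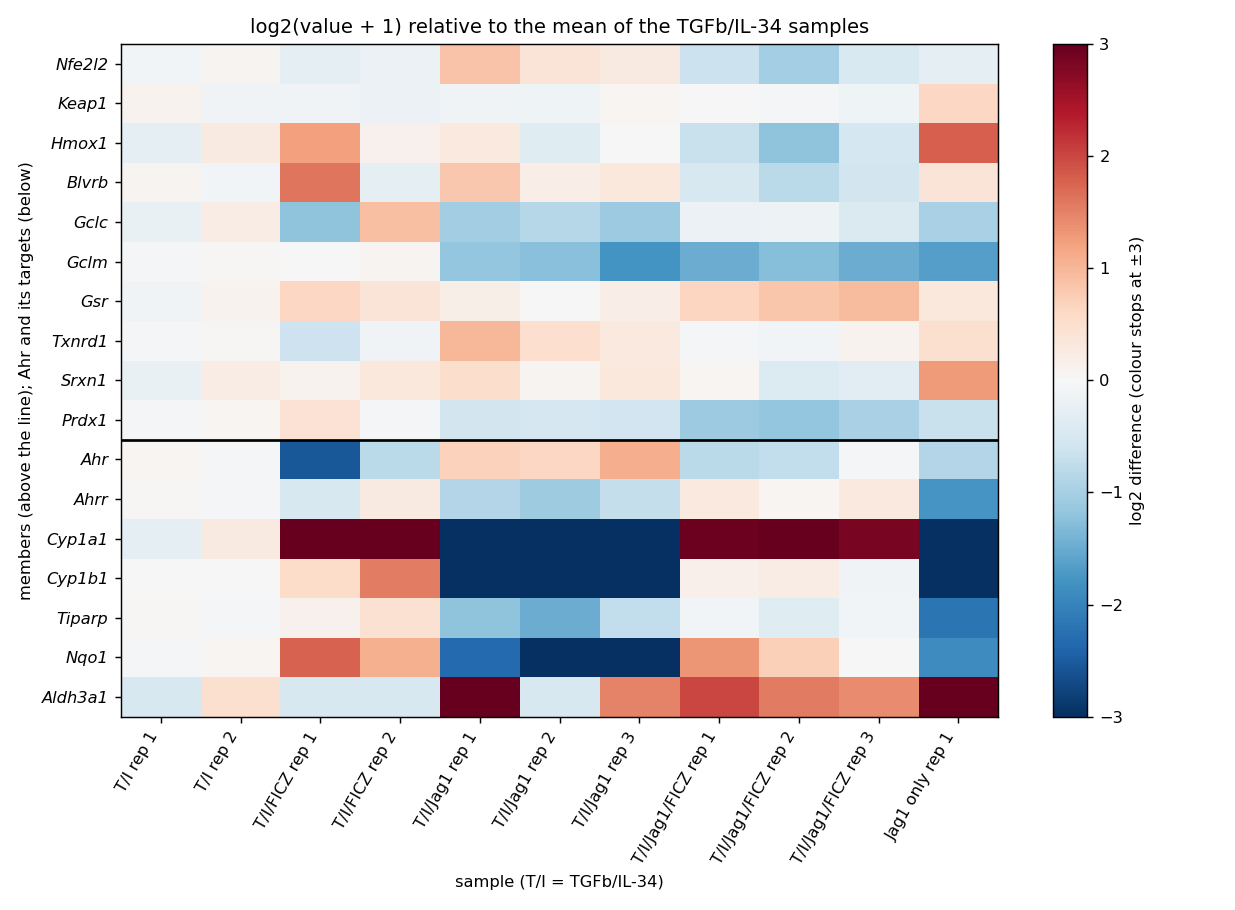
Log2(value + 1) of each sample (columns) relative to the mean of TGFβ/IL-34 for the members and the Ahr list (rows), with colour stopping at ±3. Members stay pale beside Cyp1a1 and Cyp1b1, and the TGFβ/IL-34/FICZ columns differ from each other for Blvrb, Gclc and Ahr.

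Jag1 without FICZ gave 1 of 10 calls (Gclm, lower), beside 2.64% of all genes called higher and 3.96% lower. Jag1 with FICZ gave 2 (Gclm and Prdx1, both lower), beside 1.41% and 0.603%. With the second FICZ sample of the cultures lacking Jag1 left out it gave 5, adding Hmox1 and Blvrb (lower) and Gclc (higher), and with the first left out it gave 3. Both agents together against TGFβ/IL-34 gave 3, with Gsr higher (0.81, SE 0.167, limma adjusted p = 0.0254) and Gclm (−1.42, limma adjusted p = 0.00569) and Prdx1 (−1.08, limma adjusted p = 0.00774) lower, beside 3.12% and 1.37%. These comparisons share control samples with those above. Leaving out either TGFβ/IL-34 replicate left 0 members called, while calls over all genes fell from 587 to 35 (without the first) and 126 (without the second).

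The test of whether FICZ acted differently with Jag1 than without it gave 0 of 10 members by limma, beside 1.17% of all genes higher and 0.221% lower, with 5 members (Nfe2l2, Hmox1, Blvrb, Srxn1 and Prdx1, all downward) at an unadjusted p under 0.05 and 18.8% of all genes. The largest of these differences were −1.70 for Blvrb (SE 0.619, limma adjusted p = 0.202) and −1.44 for Hmox1 (limma adjusted p = 0.187). Leaving out that second FICZ sample, 5 members were called (Nfe2l2, Hmox1, Blvrb and Prdx1 downward, Gclc upward), and 5488 of all genes. Leaving out the first, the count was 0.

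Other genes of the pathway were taken from lists chosen with earlier results of these data known. Of 12 partners and regulators of NRF2, 1 was higher with FICZ and Jag1, namely Nfe2 (5.02, SE 0.281, limma adjusted p = 5.79e-06), the hematopoietic relative of Nfe2l2, and the small MAF genes Maff (−0.59) and Mafk (−0.53) were lower. Of 18 further NRF2 targets tested, 7 were higher and 2 lower. Nqo1, Gstm1 (2.43) and Me1, which makes NADPH (1.68), rose. Fth1, the ferritin heavy chain (−2.32, limma adjusted p = 0.00225), and Pgd, of the pentose phosphate pathway (−0.48), fell. The median was −0.06, against −0.01 for all genes.

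Of 28 other glutathione enzymes 6 were higher and 1 lower in the same comparison, in which 10.9% of all genes were higher and 6.71% lower, the background for each list here. The glutathione transferases Mgst2 (4.40) and Gstm2 (3.43) and Gstm1 rose, and Mgst3 fell by 1.31 on the log2 scale. Gstm2 was at 209 and 200 in TGFβ/IL-34 and at 528 and 487 with FICZ. It was at 12.5, 19.2 and 14.5 with Jag1 and at 174, 176 and 171 with both. Of 21 other thioredoxin, peroxiredoxin and superoxide enzymes 1 was higher, the extracellular superoxide dismutase Sod3 (3.98), and 2 were lower, Txnrd3 (−1.08) and Msrb1 (−0.90). Of 17 other heme and iron genes, Alas1 (2.08), the first enzyme of heme synthesis, and Cpox (0.99) rose, and Fth1 and Ppox (−0.75) fell. Of the NADPH oxidase genes, Rac2 (2.12) and Ncf4 (1.72) rose. Of 10 genes of the ATF4 stress response, which includes the serine synthesis enzymes Psat1 (4.08) and Phgdh (3.78), 5 rose, and all 10 had a difference above 0. In the same comparison the granulocyte, progenitor and cycling markers rose, as did 3 of 4 monocyte markers tested (Ly6c2, Plac8 and Ccr2), while 3 of 6 macrophage markers fell (C1qa, C1qb and Mertk). Of 6 mast cell markers listed 3 were tested, of which Cpa3 and Gata2 rose and Kit was not called. The others, Mcpt4, Cma1 and Fcer1a, did not pass the filter, with means of 1.97, 10.2 and 0 with Jag1 and FICZ. The part of all these markers in these counts was not tested. Of the genes named as higher in these lists, Jag1 without FICZ lowered Nfe2 (−2.68), Nqo1 (−3.63), Gstm1 (−2.48) and Gstm2 (−3.67). Alas1 (−0.96), Rac2 (−2.09), Ncf4 (−1.41) and Psat1 (−1.91) were also called lower there, beside 3.96% of all genes. The rises of these genes with FICZ and Jag1 started from those lower levels. Me1, Mgst2, Sod3, Cpox and Phgdh were not called in Jag1 without FICZ, but a missed call does not show an unchanged level. With Jag1, Mgst2 was at 9.58 to 27.3 against 134 and 151 in TGFβ/IL-34, and Me1 at 40.7 to 127 against 175 and 230. Cpox was at 300 to 396 against 558 and 587, and Phgdh at 65.9 to 101 against 160 and 203. For Sod3 the ranges overlapped.

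**Figure D4:**
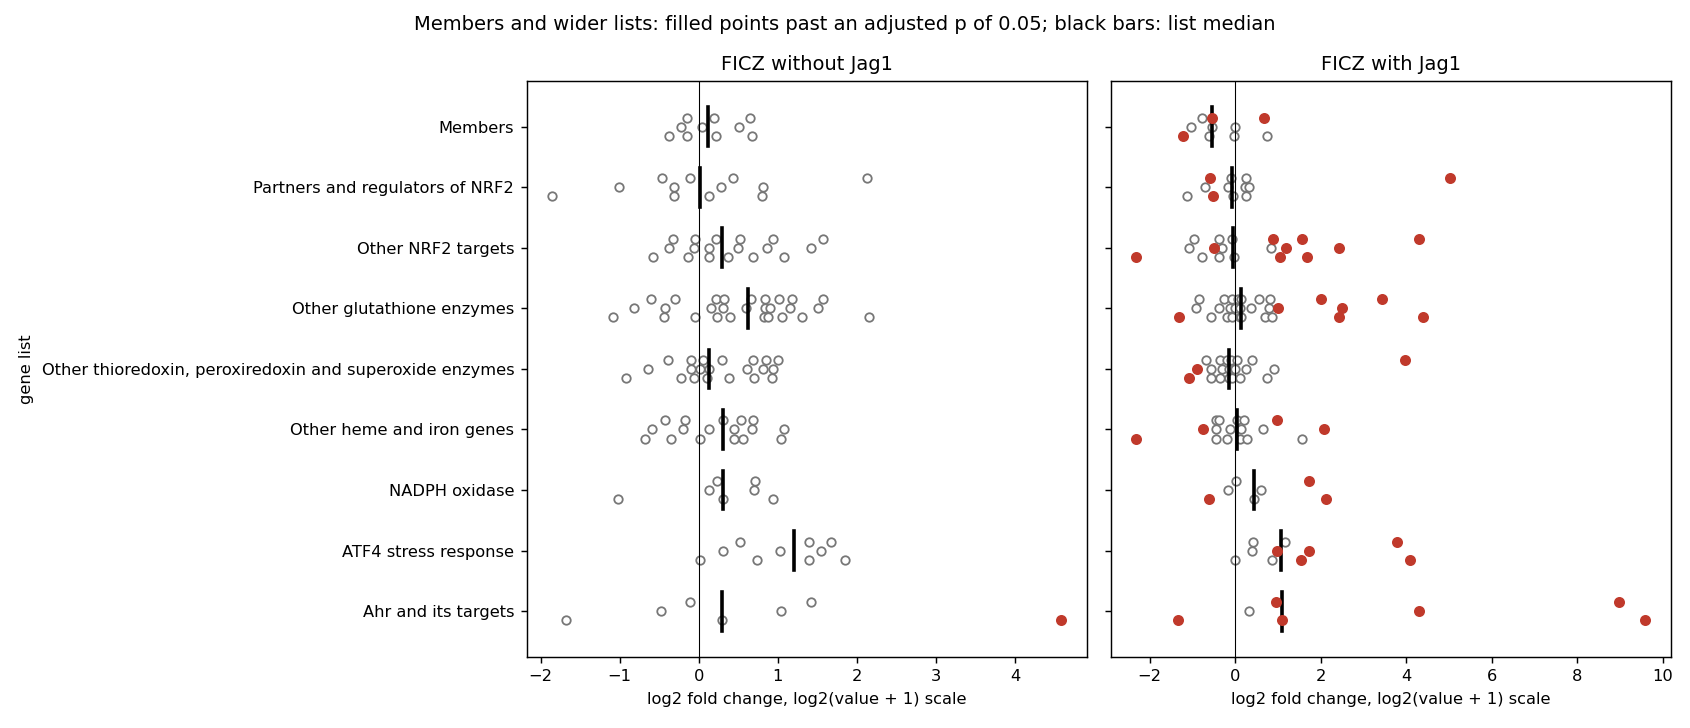
Log2 fold change (x axis) of the members and of the 8 wider lists (y axis) for FICZ without Jag1 (left) and with it (right). Each point is a gene, filled red where it passed an adjusted p of 0.05, and black bars are list medians. On the left only Cyp1a1 is filled, and on the right the members have 3 filled points, with a median of −0.53, and the ATF4 list 5, with a median of 1.07.

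Jag1 only, the single sample without TGFβ and IL-34, was above all 10 others for Keap1, for Hmox1 (1.48 times the highest) and for Srxn1 (1.70 times). For the other 7 members it lay within their range. Aldh3a1, an aldehyde dehydrogenase that Ahr ligands can induce, was at 129 in this sample and at most 10.2 elsewhere, while Cyp1a1 was at 3.02. With 1 sample these are values with no test.

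The patterns of the members over the 11 samples were compared as profiles of log2(value + 1), each centred and scaled to unit SD, by the root mean square difference, which is 0 for the same shape. Of the 45 pairs of members the closest were Gclm with Prdx1 (0.563), Hmox1 with Srxn1 (0.607) and Hmox1 with Blvrb (0.734), and the farthest were Nfe2l2 and Gsr (1.86). Among 10913 genes the closest to Gclm were Pcx (0.266), Epb41l3 (0.351) and Kif7 (0.438). The closest to Hmox1 were Psap (0.368), Lamp1 (0.412) and Clec4d (0.453), and the closest to Srxn1 were Scarb2 (0.346), Fam76a (0.410) and Atg4a (0.427). These are descriptions over samples that share batches and culture groups.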

How the data were processed

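Bulk RNA sequencing was analysed for 11 sorted samples, grouped by the treatment labels. The authors quantified reads with salmon against Ensembl GRCm39, summed transcripts with tximport and scaled genes with DESeq2, with versions not given in the sources used here. The deposited values are a signal, normalised counts per gene, from which whole reads could not be recovered for all genes, so no count model was run. Symbols are those of the table. On the log2(value + 1) scale, genes were fitted with limma 3.58.1 in R 4.3.3 (1 mean per group, all 11 samples, eBayes with a trend, 6 residual degrees of freedom), over 13095 genes with at least 10 in at least 2 samples. Two-sided p-values were adjusted by Benjamini-Hochberg within each of 6 contrasts, with a threshold of 0.05.

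The members and lists were chosen with earlier results of these data known. Named were all members, the Ahr list, and, of each other list, up to 3 genes a direction with the largest change among those that passed with a mean of at least 50. The result of a single gene among the wider lists was left out. Likeness was given for Hmox1, Gclm and Srxn1. Among the Jag1 cultures with TGFβ/IL-34, those with and without FICZ share experiment codes at the same replicate number, and their deviations from the group means correlated at 0.153, 0.122 and 0.166 across genes, so the numbers pair these groups. Alternatives were other pseudocounts, scalings, filters, blocks and array weights, fits to the groups compared alone, and each replicate left out. The fit was tested on simulated data.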

Additional observations from a re-analysis of the deposited data

Results flagged for a closer look

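For Nfe2l2 and Blvrb the Jag1 effect ran in opposite directions without and with FICZ, with no overlap of the groups in either setting. The test of that difference did not pass: it was −0.99 for Nfe2l2 (SE 0.310, limma adjusted p = 0.154) and −1.70 for Blvrb (SE 0.619, limma adjusted p = 0.202).

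In 8 genes of the wider lists the FICZ effect was larger with Jag1 than without it by the test of the difference itself, in log2 units and with limma adjusted p. The difference was 2.89 for Nfe2 (adjusted p = 0.0221), 2.13 for Gstm2 (0.0411), 2.98 for Sod3 (0.0430), 1.77 for Alas1 (0.00627), 1.42 for Rac2 (0.0430) and 2.69 for Psat1 (0.00562). It was 4.41 for Cyp1a1 (0.00821) and 8.55 for Cyp1b1 (0.000480), sizes that depend on the pseudocount because both were near 0 with Jag1 alone. No member of the NRF2 set was among these genes. All but Sod3 were called lower in Jag1 without FICZ, and their FICZ effect with Jag1 started from that level. Means of Cyp1a1 (639 with both agents, 2006 with FICZ alone) and Cyp1b1 (2749 and 5585) were lower with both. So were those of Gstm2 (174 and 507) and Rac2 (7549 and 12170), while those of Nfe2, Sod3, Alas1 and Psat1 were higher. For Jag1 with FICZ, Gstm2 was called lower (−1.54), and Sod3 (2.89) and Alas1 (0.81) higher. Over all genes tested 1.17% were called higher in the test of the difference. It rests on the TGFβ/IL-34 and TGFβ/IL-34/FICZ groups, with 2 samples each. With array weights the calls over all genes fell from 182 to 8. Whether each of these 8 genes kept its call under other settings is not given here.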

How the results depend on the processing

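Over the 6 contrasts, 1010 member values were recomputed. Of these, 945 stayed on the same side of the threshold, some with a changed direction where neither fit passed. A further 24 lost a call, 40 gained one and 1 turned, passing only in the recomputed fit. That one was Gclc for Jag1 with FICZ, at 0.94 without replicate 2 of TGFβ/IL-34/FICZ (limma adjusted p = 0.00643) and −1.16 without replicate 1. The counts of members called moved as follows, and the cause was not tested. For FICZ with Jag1 (3) array weights gave 6, either experiment code as a block 5, the compared groups alone 7, and leaving out 1 sample 1 to 3, and calls over all genes were 4123 with array weights and 3598 with the compared groups alone, against 2312. For FICZ without Jag1 (0) leaving out 1 sample gave 0 to 5. For both together (3) array weights gave 6 (3558 of all genes, against 587), the compared groups alone 5 (2807), and leaving out 1 sample 0 to 2. For the difference of effects (0) leaving out 1 sample gave 0 to 5. For Jag1 with FICZ (2) array weights and the compared groups alone gave 0 (also 0 of all genes), and leaving out 1 sample 2 to 5. For Jag1 without FICZ (1) array weights gave 4 (2627 of all genes, against 864), CPM scaling 2, quantile normalisation 2, the compared groups alone 3, and leaving out 1 sample 0 to 1. With the replicate block the count was 2 for FICZ with Jag1, without Prdx1, and 2 for both together, without Gsr (limma adjusted p = 0.0561), where the numbers do not pair the groups. The block changed no other member call. Where an arm was left with 1 sample, it was assumed to have the spread of the other groups. With 2 or 3 samples a group, a p that misses the threshold does not show that levels were alike.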
